A study of Mus musculus with 32 samples.

Results

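Hsd11b1, Inmt, Ces1d, Gsta3, Sult1e1, Cyp1a1, Cyp1b1 and Dpep1 are 8 genes for enzymes that act on steroids, esters, peptides and foreign compounds, out of 31053 genes in the count table. They were picked by symbol, with earlier results of these same counts known, so their levels and ratios are a description of these libraries and carry no test. Their UMIs (unique molecular identifiers, one per captured transcript) were summed per library and per cell class, and a cell was put in a class by a gate on marker genes, none of which is one of the 8.

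The cells came from the stromal vascular fraction of epididymal fat, the cells left when the fat-laden adipocytes are removed, of C57BL/6 mice. The 4 groups were high fat diet (HFD) mice labelled CD169-DTR, HFD mice labelled WT, normal diet (ND) mice labelled CD169-DTR and ND mice labelled WT. Each diet lasted 16 weeks, and all 4 groups, WT included, then received diphtheria toxin (DT) for 7 days. In CD169-DTR mice the toxin receptor is made by cells that express CD169 (Siglec1), and the stated aim was to remove tissue-resident macrophages in lean and obese fat. CD45+ and CD45- cells were sorted apart, with most F4/80hi cells and Ly6Chi monocytes left out, and were mixed 1:1, so the cell shares are set by the sort and are not compared here. The labels do not say how many mice a library holds, nor whether the CD169-DTR mice carry 1 or 2 copies of the allele. The 8 sequencing runs of a group are runs of 1 library, so no group has a replicate, and a difference between groups cannot be told apart from a difference between 4 libraries.

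After filtering, 19335 cells remained, 5637, 5122, 3594 and 4982 of them in the libraries labelled HFD DTR, HFD WT, ND DTR and ND WT, with 6148 to 9155 UMIs in the median cell. Siglec1, whose gene product defines the cells to be removed, went against the labels: it had 191 and 113 UMIs in the libraries labelled HFD DTR and ND DTR, against 51 and 5 in those labelled HFD WT and ND WT. Group names are therefore used as labels only. The sort had already taken out most macrophages, so this count does not show whether the depletion worked. Siglec1 also went against the labels within macrophage-like cells, as CPM (its UMIs scaled to one fixed total per library and class). On high fat diet it stood at 12.6 CPM in cells labelled DTR and 4.89 CPM in cells labelled WT. On normal diet it stood at 14.3 CPM in cells labelled DTR and 0.408 CPM (1 UMI) in cells labelled WT. The cause of this was not tested. In addition, 591 kept cells (3.06%) carried a barcode sequence that also occurs in another library. The libraries labelled ND DTR and ND WT shared 144, of which 70 were gated in both and 68 of these fell in the same class. Leaving out all cells with a shared barcode moved no log2 ratio of a member in fibroblast-like cells by more than 0.23, and the values without them are given with the ratios.

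Glucocorticoids circulate in mice mainly as corticosterone and its inert 11-keto form. The enzyme 11β-hydroxysteroid dehydrogenase type 1, encoded by Hsd11b1, regenerates the active hormone inside the cell with NADPH that H6pd supplies in the endoplasmic reticulum, and Hsd11b2 runs the reaction the other way. Fat tissue is a known site of Hsd11b1 expression, in adipocytes and in their stromal precursors. Foreign compounds are commonly handled in stages. Cytochrome P450 enzymes such as Cyp1a1 and Cyp1b1 oxidise them, and are classical targets of the aryl hydrocarbon receptor (AhR), which binds DNA as a dimer with Arnt. Esterases such as Ces1d cleave esters, and transferases such as Gsta3, Sult1e1 and Inmt add glutathione, sulfate or methyl groups.

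The members lie on 6 chromosomes of the mm10 genome (GRCm38). Hsd11b1 spans chr1:193221634-193264075 on the minus strand and Gsta3 chr1:21240589-21265661 on the plus strand. Inmt spans chr6:55170626-55175043, Sult1e1 chr5:87575969-87591594, Cyp1b1 chr17:79701537-79715061 and Ces1d chr8:93166068-93197838, all on the minus strand. Cyp1a1 spans chr9:57687928-57703824 and Dpep1 chr8:123186242-123201812, both on the plus strand. No exon of a member overlaps an exon of another annotated gene.

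Promoter sequences from RefSeq (GRCm38.p6, from 250 bases before to 50 after the start that RefSeq gives) were matched to 7 of the 8 members, and 3 are shown. The spans above are the widest of all GENCODE transcripts, and the RefSeq start lies far inside them for a pair of members. For Cyp1a1 it is 57697613, which is 9685 bases inside the span and is the first base of another GENCODE transcript, and for Hsd11b1 it is 193242360, which is 21715 bases inside. For the other 5 it lies within 53 bases of the end of the span, and that of Inmt is 53 bases inside. The pair of Cyp1 genes is shown because both are classical AhR targets yet had different patterns here, and Inmt because its level in fibroblast-like cells spanned one of the widest ranges of the members. Capitals mark the AhR core GCGTG (or CACGC, the same core on the other strand) and the TATA box TATAAA, and no marked match overlaps another. The windows are chr9:57697363-57697662 on the plus strand for Cyp1a1, chr17:79715012-79715311 on the minus strand for Cyp1b1 and chr6:55174941-55175240 on the minus strand for Inmt, each printed 5′ to 3′ on the gene's own strand.
Cyp1a1: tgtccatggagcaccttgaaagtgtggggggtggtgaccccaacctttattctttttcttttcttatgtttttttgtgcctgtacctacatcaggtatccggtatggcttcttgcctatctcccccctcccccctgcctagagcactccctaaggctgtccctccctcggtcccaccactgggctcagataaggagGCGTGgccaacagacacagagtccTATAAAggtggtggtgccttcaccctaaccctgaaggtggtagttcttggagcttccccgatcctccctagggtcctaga
Cyp1b1: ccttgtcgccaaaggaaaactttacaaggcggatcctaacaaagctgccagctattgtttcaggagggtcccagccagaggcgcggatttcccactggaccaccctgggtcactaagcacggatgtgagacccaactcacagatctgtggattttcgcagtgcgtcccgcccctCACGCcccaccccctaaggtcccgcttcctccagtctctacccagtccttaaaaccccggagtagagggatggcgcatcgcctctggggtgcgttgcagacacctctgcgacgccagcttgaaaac
Inmt: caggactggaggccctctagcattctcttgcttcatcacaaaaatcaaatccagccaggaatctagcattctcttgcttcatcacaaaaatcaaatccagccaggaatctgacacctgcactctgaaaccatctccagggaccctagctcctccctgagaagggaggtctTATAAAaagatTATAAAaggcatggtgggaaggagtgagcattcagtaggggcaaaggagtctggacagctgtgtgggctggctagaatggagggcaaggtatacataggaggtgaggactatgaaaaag
Cyp1a1 held the AhR core at -54 to -50 from its RefSeq start and a TATA box at -30 to -25. Cyp1b1 held the AhR core on the other strand at -76 to -72 and no TATA box of these letters. Inmt held a pair of TATA boxes, starting at -80 and -69. Searched on both strands, GCGTG occurred in 4 of the 7 members (Hsd11b1, Cyp1a1, Cyp1b1 and Dpep1) and in 32.5% of 27025 promoters of the same length, and TATAAA in 2 of 7 (Inmt and Cyp1a1) and in 14.2%. The NRF2 core TGACNNNGC occurred in 2 of 7 (Hsd11b1 and Gsta3) and in 12.5%. The glucocorticoid receptor core AGAACA, present in 19% of promoters, and the C/EBP site TTGCGNAA, present in 0.807%, occurred in none of the 7.

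Most UMIs of these genes came from fibroblast-like cells, gated on collagens, Pdgfra, Dcn and Lum, which in fat include the precursors of adipocytes. Fibroblast-like cells held 99.6% of the gated UMIs of Inmt and of Sult1e1, 99.5% of Dpep1, 99.2% of Cyp1b1 and 93.9% of Hsd11b1. Gsta3 was divided between fibroblast-like (67%) and mesothelial-like cells (26.9%), the lining of the fat pad, and Ces1d between fibroblast-like (47.9%), mesothelial-like (34.7%) and vascular endothelial-like cells (16.2%). Cyp1a1 was the exception, with 99.1% of its 115 gated UMIs in endothelial-like cells. These shares follow the number of cells as well as the level, and the levels are given next as CPM, the gene's UMIs scaled to one fixed total of UMIs per library and class, with exact Poisson 95% intervals that cover counting error only.

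**Figure D1:**
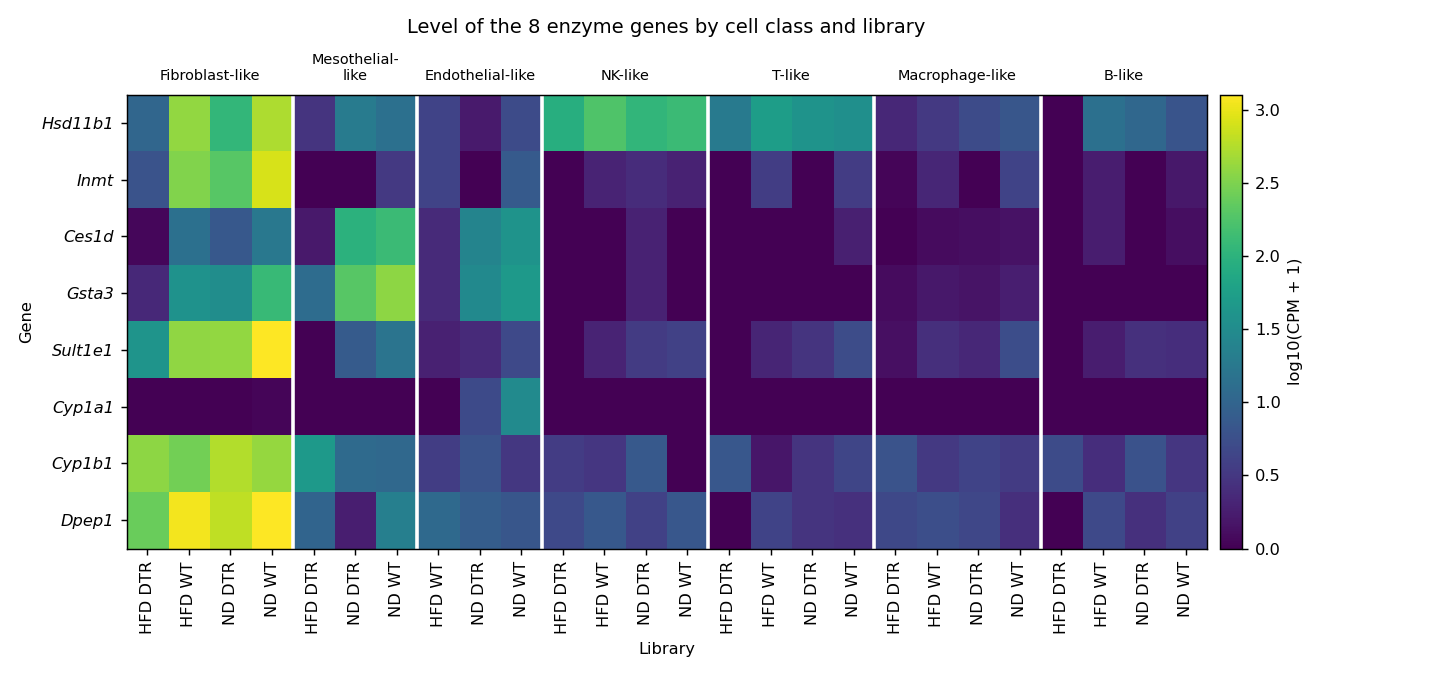
Level of each of the 8 genes, as log10(CPM + 1) in colour, in 7 cell classes and each library with at least 50 cells of the class, libraries in the order HFD DTR, HFD WT, ND DTR, ND WT. Inmt, Sult1e1, Cyp1b1 and Dpep1 stand out in fibroblast-like cells, Hsd11b1 in fibroblast-like and NK-like cells, Gsta3 and Ces1d in mesothelial-like cells on normal diet, and Cyp1a1 in endothelial-like cells labelled ND WT.

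Across classes, the range over libraries separated fibroblast-like cells from the next class for Sult1e1 (40 to 1278 CPM, against 0 to 14.8 CPM in mesothelial-like cells), Cyp1b1 (276 to 560 CPM, against 10.2 to 46.5 CPM in mesothelial-like cells) and Dpep1 (248 to 1257 CPM, against 0.845 to 21.0 CPM in mesothelial-like cells). For the remaining members the ranges of neighbouring classes overlapped. Inmt ran from 5.32 to 835 CPM in fibroblast-like cells and from 0 to 6.53 CPM in endothelial-like cells. Hsd11b1 ran from 9.49 to 532 CPM in fibroblast-like cells, 86.6 to 178 CPM in NK-like cells and 18.1 to 53.3 CPM in T-like cells. Gsta3 ran from 11.6 to 377 CPM in mesothelial-like cells, 1.28 to 125 CPM in fibroblast-like cells and 1.35 to 45.5 CPM in endothelial-like cells.

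The fibroblast-like cells numbered 2825, 1782, 1117 and 1096 in the libraries labelled HFD DTR, HFD WT, ND DTR and ND WT, and they were not the same mixture in each. Their marker Pdgfra stood at 131, 183, 295 and 290 CPM and Col1a1, a fibrillar collagen gene, at 9480, 3937, 4066 and 1633 CPM in that order. Cells of the myofibroblast sub-gate (Tnc, Cnn1, Ltbp2, Acta2, Tagln, Postn, Cthrc1) made up 45.4% of them in the library labelled HFD DTR, against 2.24%, 3.85% and 1.09% in the other libraries, and cycling cells 3.82%, 0.337%, 1.97% and 0.456%. Different clusters held most of the class in each library: clusters 1 (46.8%) and 9 (27.8%) in HFD DTR, cluster 4 (57.4%) in HFD WT, cluster 6 (60.1%) in ND DTR and cluster 5 (61.3%) in ND WT. The part of this mixture in the ratios of the whole class was not tested, and values within the sub-gates follow the whole-class values.

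In fibroblast-like cells, Hsd11b1, Inmt, Ces1d, Gsta3, Sult1e1 and Dpep1 were lower in the libraries labelled DTR than WT on both diets. Each was lower by more on high fat diet. Beside them, the median log2 ratio of all genes measured was 0.33 on high fat and 0.11 on normal diet. How many of all genes had this direction on both diets was not counted. Hsd11b1, which regenerates active glucocorticoid, stood at 9.49 CPM in HFD cells labelled DTR and 397 CPM in HFD cells labelled WT, and at 113 CPM in ND cells labelled DTR and 532 CPM in ND cells labelled WT. It was 41.8-fold lower on high fat diet (log2 ratio -5.39, 95% counting interval -5.54 to -5.24) and 4.71-fold lower on normal diet (-2.24, -2.32 to -2.16). Both libraries labelled WT were thus high and the 1 labelled HFD DTR was far below the rest. Between diets, HFD over ND, the ratio was -3.57 (-3.74 to -3.41) in cells labelled DTR and -0.42 (-0.47 to -0.37) in cells labelled WT.

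The fraction of cells with a UMI of Hsd11b1 followed the same order, also at equal depth. With every cell thinned to 2000 UMIs, 1.89% of fibroblast-like cells labelled HFD DTR, 35.4% of HFD WT, 17% of ND DTR and 49.4% of ND WT had a UMI. Before thinning the shares were 9.66%, 60.6%, 47.0% and 70.1%, at median depths of 12904, 11207, 12233 and 9630 UMIs, and thinning left out 69, 82, 36 and 86 shallower cells. In macrophage-like cells, where the gene is not a marker, the unthinned share was 1.08%, 2.86%, 3.72% and 4.14%.

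**Figure D2:**
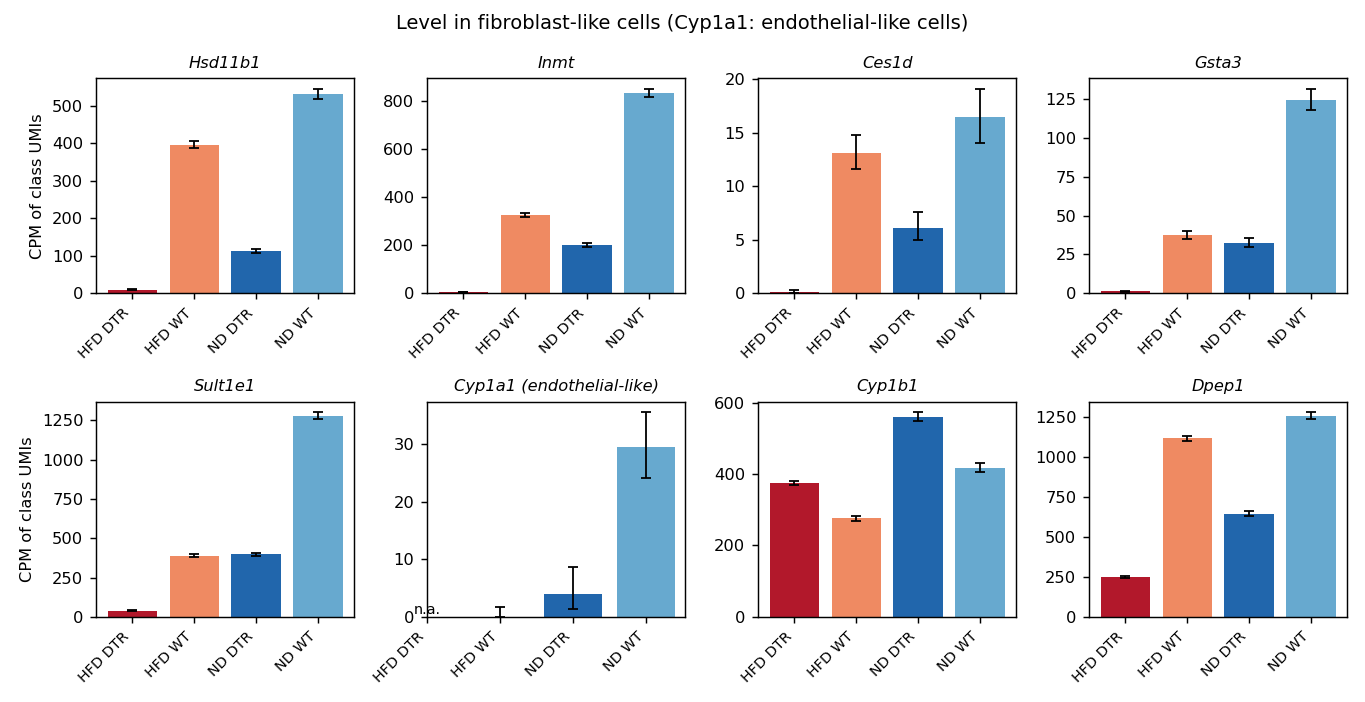
Level of each gene in fibroblast-like cells (Cyp1a1: endothelial-like cells) of the 4 libraries, in CPM of the class, with bars from 0 and exact Poisson 95% intervals as lines; n.a. marks a class with under 50 cells. Hsd11b1, Inmt, Ces1d, Gsta3, Sult1e1 and Dpep1 are lowest in the library labelled HFD DTR and highest in that labelled ND WT, and Cyp1b1 is higher in the libraries labelled DTR on both diets.

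Ces1d, a carboxylesterase of fat and liver that cleaves lipid and drug esters, was the scarcest member measured in these cells. It stood at 0.148 CPM (6 UMIs) in HFD cells labelled DTR and 13.1 CPM in HFD cells labelled WT, and at 6.14 CPM in ND cells labelled DTR and 16.4 CPM in ND cells labelled WT. The log2 ratio was -6.47 on high fat diet, with a wide interval of -7.93 to -5.33 that comes from those 6 UMIs, and -1.42 (-1.81 to -1.04) on normal diet. Between diets it was -5.38 (-6.86 to -4.20) in cells labelled DTR and -0.33 (-0.61 to -0.04) in cells labelled WT.

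Among the transferases, Inmt, which methylates indole amines and other amines, stood at 5.32 CPM in HFD cells labelled DTR and 325 CPM in HFD cells labelled WT, and at 200 CPM in ND cells labelled DTR and 835 CPM in ND cells labelled WT. The gene was 61.0-fold lower on high fat diet (-5.93, -6.13 to -5.74) and 4.17-fold lower on normal diet (-2.06, -2.12 to -2.00). Its share of thinned cells with a UMI was 1.31%, 32.8%, 27.1% and 57.3% in the libraries labelled HFD DTR, HFD WT, ND DTR and ND WT. Unlike Hsd11b1 and Ces1d, Inmt was also more than 2-fold lower on high fat than on normal diet in cells labelled WT (-1.36, -1.41 to -1.32), beside -5.23 (-5.44 to -5.03) in cells labelled DTR.

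Gsta3, an alpha-class glutathione transferase that joins glutathione to electrophiles and isomerises steroids, stood at 1.28 CPM in HFD cells labelled DTR and 37.2 CPM in HFD cells labelled WT. On normal diet it stood at 32.4 CPM in cells labelled DTR and 125 CPM in cells labelled WT. The ratio of DTR to WT was -4.86 (-5.30 to -4.45) on high fat and -1.94 (-2.10 to -1.79) on normal diet. The levels of HFD cells labelled WT and ND cells labelled DTR lay close together and their Poisson intervals overlapped, while ND cells labelled WT stood above both. Between diets the ratio was -4.66 (-5.10 to -4.24) in cells labelled DTR and -1.74 (-1.88 to -1.61) in cells labelled WT.

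Sult1e1, the sulfotransferase that inactivates oestrogens, stood at 40 CPM in HFD cells labelled DTR and 390 CPM in HFD cells labelled WT, and at 397 CPM in ND cells labelled DTR and 1278 CPM in ND cells labelled WT. It was 9.74-fold lower on high fat diet (-3.28, -3.36 to -3.21) and 3.22-fold lower on normal diet (-1.69, -1.73 to -1.64). Here too the middle pair of libraries could not be ordered, as their Poisson intervals overlapped. The diet ratios were -3.31 (-3.39 to -3.23) in cells labelled DTR and -1.71 (-1.75 to -1.67) in cells labelled WT, and against the library labelled ND WT the libraries labelled HFD WT and ND DTR were thus lower by nearly the same amount. In thinned cells, 6.13%, 35.8%, 41.2% and 68.0% had a UMI in HFD DTR, HFD WT, ND DTR and ND WT.

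Dpep1, a membrane dipeptidase that cleaves the glycine from leukotriene D4 and from cysteinyl-glycine, stood at 248 CPM in HFD cells labelled DTR and 1117 CPM in HFD cells labelled WT, and at 646 CPM in ND cells labelled DTR and 1257 CPM in ND cells labelled WT. It was 4.50-fold lower on high fat diet (-2.17, -2.21 to -2.14) and 1.95-fold lower on normal diet (-0.96, -0.999 to -0.92), just inside the 2-fold limit. Before thinning, 77.5% of fibroblast-like cells labelled HFD DTR still had a UMI, against 96.1% of HFD WT, with 94.4% in ND DTR and 93.0% in ND WT. The thinned shares were 38.1%, 78.9%, 67.1% and 85.0%. Between diets the ratio was -1.38 (-1.42 to -1.34) in cells labelled DTR and -0.17 (-0.20 to -0.14) in cells labelled WT.

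Cyp1b1, the P450 that hydroxylates oestradiol and polycyclic aromatic compounds, went the other way. It stood at 375 CPM in HFD cells labelled DTR and 276 CPM in HFD cells labelled WT, and at 560 CPM in ND cells labelled DTR and 417 CPM in ND cells labelled WT. The level was 1.36-fold higher with the DTR label on high fat diet (0.44, 0.40 to 0.49) and 1.34-fold higher on normal diet (0.43, 0.37 to 0.48), inside the 2-fold limit on both. Of all genes measured, 42.4% were at least this high on high fat diet and 24.1% on normal diet, so these ratios do not set Cyp1b1 apart. Both HFD libraries were below the ND library of the same label, with ratios of -0.58 (-0.62 to -0.54) in cells labelled DTR and -0.60 (-0.65 to -0.54) in cells labelled WT. Its difference between the labels was thus the same on both diets (0.02 on the log2 scale, high fat minus normal), while for the other 6 measured genes it was more negative on high fat diet (-1.21 for Dpep1 to -5.05 for Ces1d). Cyp1a1 was listed at 0 UMIs in fibroblast-like cells of 3 libraries and at 1 UMI in ND cells labelled WT.

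A gene was counted as past 2-fold when the class CPM of the libraries compared differed at least 2-fold and the gene had at least 50 UMIs over both. Of 8 members 7 passed that minimum in fibroblast-like cells, all but Cyp1a1. With the DTR over the WT label on high fat diet, 6 of the 7 were lower (all but Cyp1b1), where 3.75% of the 12599 genes measured were lower. On normal diet, 5 of the 7 were lower (Hsd11b1, Inmt, Ces1d, Gsta3 and Sult1e1), where 3.04% of 11088 genes were. With high fat over normal diet, 6 of 7 were lower in cells labelled DTR (4.52% of 12553 genes) and 3 of 7 in cells labelled WT (Inmt, Gsta3 and Sult1e1; 4.01% of 11151 genes). No member was 2-fold higher in any of the 4, where 17.3%, 6.8%, 9.27% and 2.82% of genes were in the same order. The median log2 ratio of the 7 was -4.86, -1.69, -3.57 and -0.60 in that order of comparisons, beside 0.33, 0.11, 0.14 and -0.08 over all genes measured. The members were chosen with these values known, and the 4 comparisons share libraries, so the counts are not independent of the choice or of each other.

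**Figure D3:**
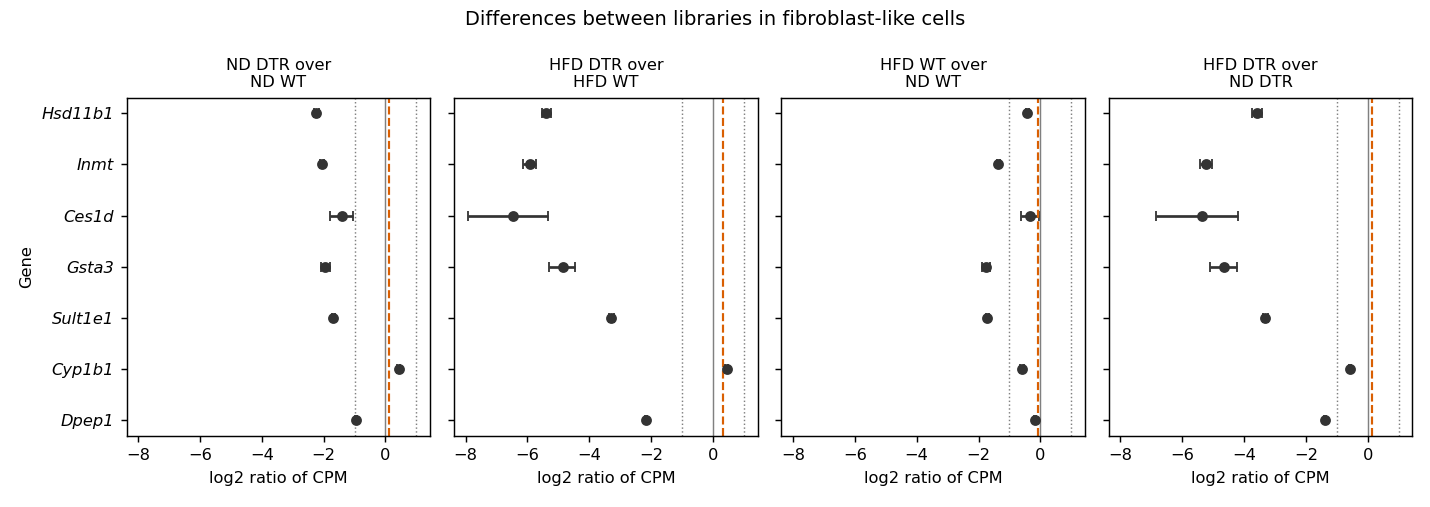
Log2 ratio of CPM in fibroblast-like cells for the 7 measured genes, 1 panel for each of the 4 comparisons, with 95% counting intervals as horizontal lines, dotted lines at 2-fold and a dashed line at the median of all genes measured. Hsd11b1, Inmt, Ces1d and Gsta3 lie between -4.86 and -6.47 for HFD DTR over HFD WT, and Cyp1b1 lies at 0.44.

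Without the cells whose barcode occurs in another library, the ratios of ND cells labelled DTR over WT were -2.13 for Hsd11b1, -1.84 for Inmt, -1.74 for Gsta3, -1.59 for Sult1e1, -0.81 for Dpep1 and 0.54 for Cyp1b1. The counts of 6, 5, 6 and 3 genes lower were the same without them. The largest move was that of Inmt in HFD over ND cells labelled DTR, which was -5.47 without them, against -5.23 with them.

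The 6 members that were lower with the DTR label in the sums were also counted per cell. Their direction was known from the same UMIs, so the shares describe single cells and add no support. Cyp1b1 was left out of the 6. It had a UMI in 50.3%, 36.3%, 59.9% and 50.1% of thinned cells in HFD DTR, HFD WT, ND DTR and ND WT. After thinning, at least 3 of the 6 genes Hsd11b1, Inmt, Ces1d, Gsta3, Sult1e1 and Dpep1 had a UMI in 0.327% of fibroblast-like cells labelled HFD DTR and 31.2% of HFD WT, and in 21.4% of ND DTR and 60.7% of ND WT. None of the 6 had a UMI in 57.7%, 10.9%, 17.6% and 3.66% of the cells in that order. In the libraries labelled HFD WT, ND DTR and ND WT, Inmt was found more often in cells that also had a Hsd11b1 UMI. In ND cells labelled WT, 71.1% of thinned cells with a Hsd11b1 UMI also had an Inmt UMI, against 43.8% of those without. The pairs of shares were 45.5% and 25.9% in HFD WT, and 39.7% and 24.5% in ND DTR. In HFD DTR they were 3.85% and 1.26%, where 3.85% is 2 of 52 cells, too few to compare. Not every pair of members went this way. Ces1d was found in 3.81% of ND WT cells with a Hsd11b1 UMI and 3.91% of those without. The shares for Ces1d were 3.99% and 1.73% in HFD WT, and 1.09% (2 cells) and 2.01% in ND DTR.

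Fat fibroblasts are commonly divided into Pi16/Dpp4 progenitors, Col15a1 preadipocyte-like cells and F3 (CD142) cells, and the members differed between these sub-gates. Of these 3, the Pi16 sub-gate had the lowest Hsd11b1 in every library. Its levels in the Pi16, Col15a1 and F3 sub-gates were 4.66, 19.98 and 17.8 CPM in HFD cells labelled DTR and 109, 585 and 382 CPM in HFD cells labelled WT. On normal diet they were 17.3, 159 and 112 CPM in cells labelled DTR and 122, 787 and 536 CPM in cells labelled WT. Inmt was the highest of the 3 in the F3 sub-gate of 3 libraries, at 498 CPM in HFD WT, 377 CPM in ND DTR and 1314 CPM in ND WT, and at 11.1 CPM in HFD DTR, where the Col15a1 sub-gate had 14.5 CPM. Sult1e1 was the highest of the 3 in the F3 sub-gate of all 4 libraries, at 84.1, 566, 541 and 1765 CPM in HFD DTR, HFD WT, ND DTR and ND WT. The sub-gates are cuts along scores, and 13.1% of 6820 fibroblast-like cells lay within 0.1 of a cut.

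**Figure D4:**
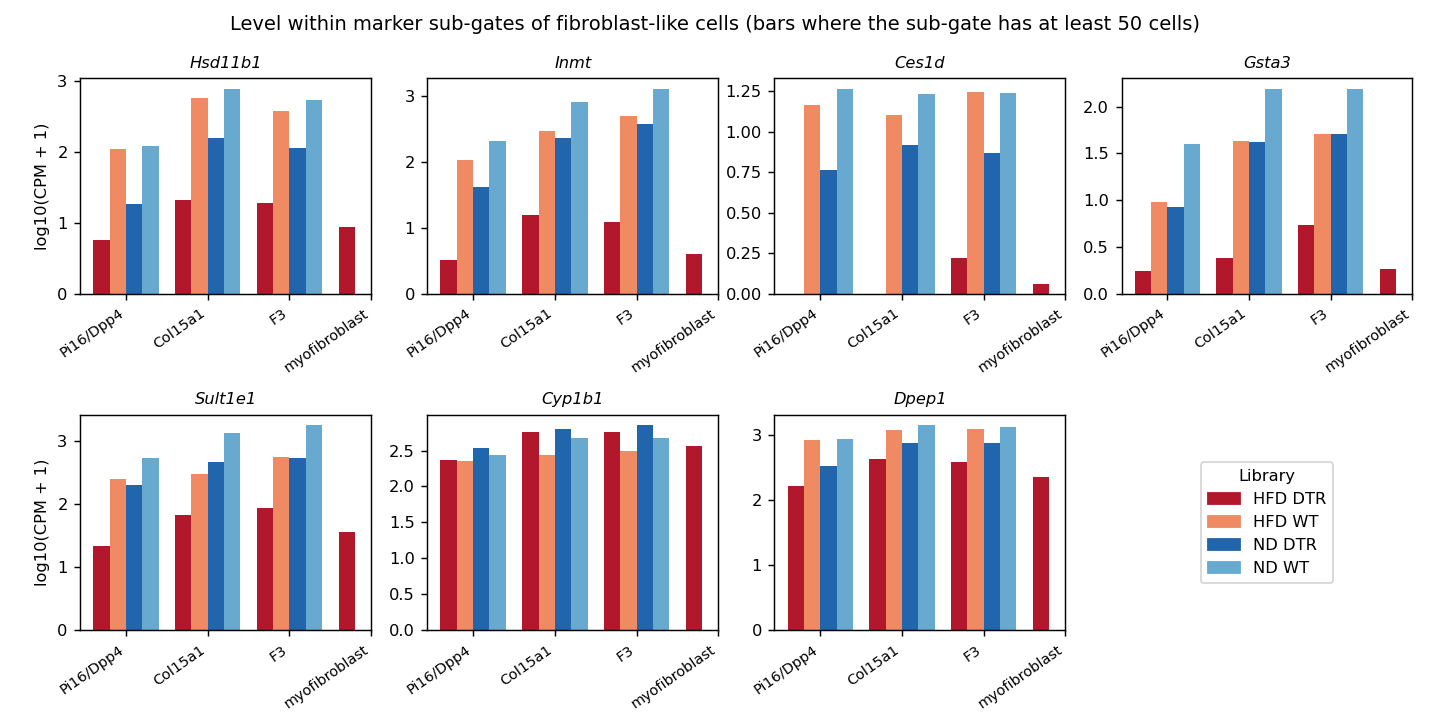
Level of 7 of the genes, as log10(CPM + 1), in the Pi16, Col15a1, F3 and myofibroblast sub-gates of fibroblast-like cells, with 1 bar for each library that has at least 50 cells in the sub-gate. Within each of the Pi16, Col15a1 and F3 sub-gates Hsd11b1, Inmt and Sult1e1 are lowest in the library labelled HFD DTR.

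Within each sub-gate the direction was as in the class. For HFD DTR over HFD WT, the log2 ratios of Hsd11b1 were -4.55, -4.87 and -4.43 in the Pi16, Col15a1 and F3 sub-gates, those of Inmt -5.56, -4.36 and -5.49, and those of Sult1e1 -3.63, -2.20 and -2.75. Dpep1 was at -2.33, -1.51 and -1.71. Ces1d had no UMI in the Col15a1 cells labelled HFD DTR, which made it at least 16.4-fold lower than in HFD WT, taking 3 UMIs as the floor of the library. On normal diet, DTR over WT, Hsd11b1 was at -2.81, -2.31 and -2.25, Inmt at -2.34, -1.85 and -1.80, Gsta3 at -2.39, -1.92 and -1.61, and Sult1e1 at -1.45, -1.53 and -1.71. Cyp1b1 was 2-fold higher in 1 sub-gate, Col15a1 on high fat diet (1.07), with 0.04 in the Pi16 and 0.85 in the F3 sub-gate. How many of all genes were 2-fold higher within that sub-gate was not counted, and in the whole class 17.3% were. Myofibroblast cells labelled HFD DTR had 7.76 CPM of Hsd11b1, 2.96 of Inmt, 34.6 of Sult1e1, 364 of Cyp1b1 and 227 of Dpep1, within the range of the other 3 sub-gates of that library.

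Hsd11b1 was also found in NK-like cells, where its level was the highest of the immune classes. It stood at 86.6 CPM in HFD cells labelled DTR and 178 CPM in HFD cells labelled WT, and at 109 CPM in ND cells labelled DTR and 129 CPM in ND cells labelled WT. A UMI was seen in 28.0%, 42.0%, 33.6% and 41.4% of these cells, far above the share in macrophage-like cells. NK-like cells had 0, 1, 5 and 3 UMIs of Sult1e1 beside 68, 171, 220 and 131 of Hsd11b1, whereas fibroblast-like cells had 1623, 7907, 5826 and 13134 of Sult1e1 beside 385, 8049, 1656 and 5465 of Hsd11b1. The ratio of DTR to WT was -1.04 (-1.46 to -0.62) on high fat diet, past 2-fold where 2.45% of 4525 genes were lower, and -0.24 (-0.56 to 0.08) on normal diet, where 0.795% of 6164 genes were 2-fold lower. The NK-like cells of the HFD libraries differed in other ways too. The NK marker Ncr1 stood at 256 CPM in HFD DTR and 430 CPM in HFD WT, the leukocyte gene Ptprc at 998 and 1454 CPM, and the fibroblast gene Col1a1 at 63.7 and 12.5 CPM, and cycling cells made up 14.3% and 3.05%. The part of these in the Hsd11b1 ratio was not tested. Between diets it was -0.33 (-0.75 to 0.07) in cells labelled DTR and 0.46 (0.13 to 0.80) in cells labelled WT, inside 2-fold where 2.19% of 6106 and 0.766% of 4701 genes were lower. T-like cells had 18.1, 53.3, 38.3 and 34.7 CPM in HFD DTR, HFD WT, ND DTR and ND WT.

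In mesothelial-like cells Gsta3 and Ces1d had their highest levels, and both were low in the library labelled HFD DTR. HFD WT had 29 such cells and is not given. Gsta3 stood at 11.6 CPM in HFD cells labelled DTR, 199 CPM in ND cells labelled DTR and 377 CPM in ND cells labelled WT, and was found in 15.2%, 77.8% and 92.6% of the cells. Ces1d stood at 0.647 CPM (1 UMI), 98.0 CPM and 130 CPM in the same order. Between diets in cells labelled DTR, the log2 ratio of Gsta3 was -4.09 and that of Ces1d -7.24, which for 1 UMI has a counting interval of -12.56 to -4.74. Cyp1b1 was higher, at 46.5 CPM in HFD cells against 11 CPM in ND cells labelled DTR (2.08, 1.22 to 3.06). Of the 3 members past the minimum, 2 were thus lower, as were 7.74% of 6394 genes, and 1 was higher, as were 11.2%. The mesothelial marker Msln was also lower, at 365, 773 and 915 CPM in HFD DTR, ND DTR and ND WT, and cycling cells made up 24.1%, 2.47% and 0%, and whether either bears on Gsta3 and Ces1d was not tested. The fibroblast genes Col1a1 (1922, 1058 and 978 CPM) and Pdgfra (23.3, 13.5 and 11.9 CPM) were highest in HFD DTR, in the same order. Whether fibroblast RNA bears on the higher Cyp1b1 was not tested. On normal diet, DTR over WT, neither of 2 members passed 2-fold (Gsta3 -0.92 and Ces1d -0.41), where 1.89% of 6339 genes were lower.

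Cyp1a1, the P450 most often used as a readout of the AhR, was measured almost only in endothelial-like cells, which numbered 15 in the library labelled HFD DTR, too few to give. It had 0 UMIs in 487 HFD cells labelled WT, 6 UMIs in 4 of 422 ND cells labelled DTR (3.95 CPM) and 108 UMIs in 47 of 884 ND cells labelled WT (29.4 CPM, 5.32% of the cells). On normal diet the log2 ratio of DTR to WT was -2.90 (-4.37 to -1.73), the single member lower of 3 past the minimum, where 1.26% of 7723 genes were. With high fat over normal diet in cells labelled WT, Cyp1a1 was at least 21.7-fold lower, taking 3 UMIs as the floor, and all 3 measured members were lower, where 2.49% of 7986 genes were. By sub-gate, capillary cells had 0 CPM in HFD WT, 9.57 CPM in ND DTR and 51.7 CPM in ND WT, and arterial cells 22.1 CPM in ND WT. Ahr itself stood at 12.6, 19.1 and 22.3 CPM in the same 3 libraries.

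Ces1d and Gsta3 were the other members measured in endothelial-like cells, and RNA of adipocytes varied with them. Ces1d stood at 1.35 CPM in HFD WT, 24.4 CPM in ND DTR and 38.1 CPM in ND WT, and Gsta3 at 1.35, 29.0 and 45.5 CPM. Their ratios were -0.65 each for ND DTR over ND WT, and -4.81 and -5.07 for HFD WT over ND WT. All 7 adipocyte markers were detected in these cells in each of the 3 libraries, with a summed level of 200, 1738 and 2350 CPM in HFD WT, ND DTR and ND WT (Adipoq, an adipocyte hormone, 15.4, 84.9 and 102 CPM). In the 137 ND WT cells with no adipocyte UMI, Ces1d stood at 10.6 CPM, Gsta3 at 6.34 CPM and Cyp1a1 at 16.9 CPM (8 UMIs). In the other 747 they stood at 42.2, 51.2 and 31.2 CPM. In ND DTR, Ces1d stood at 2.04 CPM (1 UMI) in the 150 cells without and 35 CPM in the 272 cells with an adipocyte UMI. Gsta3 stood at 2.04 CPM (1 UMI) and 41.8 CPM. Cyp1a1 had too few UMIs in ND DTR to compare, at 4.08 CPM (2 UMIs, interval 0.495 to 14.8) and 3.89 CPM (4 UMIs, 1.06 to 9.95). The part of adipocyte RNA in these levels was not tested. In fibroblast-like cells the summed markers were far lower, at 37.5, 13.1, 216 and 184 CPM in HFD DTR, HFD WT, ND DTR and ND WT. The highest single marker gave 24.0, 5.96, 167 and 163 CPM of these sums. In endothelial-like cells it gave 104, 1126 and 1671 CPM in HFD WT, ND DTR and ND WT, so these sums lean on a single marker. Without any adipocyte UMI, fibroblast-like cells had 8.43, 406, 109 and 544 CPM of Hsd11b1 in HFD DTR, HFD WT, ND DTR and ND WT. In the same order they had 5.30, 329, 208 and 870 CPM of Inmt and 1.39, 38.1, 33.3 and 128 CPM of Gsta3. Ces1d stood at 0.134, 13.9, 6.07 and 17.1 CPM in these cells. The part of adipocyte RNA in the fibroblast-like levels was not tested either. In mesothelial-like cells 0, 2 and 5 of the 7 were detected in HFD DTR, ND DTR and ND WT (0, 3.38 and 32.9 CPM).

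Of close relatives, most had few UMIs. Ces1d had 1108 gated UMIs, beside 13 of Ces1a, 24 of Ces1f and 0 of each other Ces1 gene measured. Gsta3 had 3827, beside 23 of Gsta1, 31 of Gsta2 and 1412 of the more distant Gsta4. Hsd11b1 had 16561 UMIs and Hsd11b2, the enzyme of the opposite reaction, 444. No UMI of Cyp1a2 was counted. Dpep1 had 55391 UMIs beside 1479 of Dpep2, whose level was highest in macrophage-like cells, and 158 of Dpep3. No source used here says how reads shared by near-identical copies were assigned, so the split within the Ces1 and Gsta families is uncertain.

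The other genes of the same pathways, 9 lists with 136 symbols chosen for function, were on both sides in fibroblast-like cells. Of 18 genes for glucocorticoid supply, receptor and response, 3 were 2-fold higher and 2 lower for DTR over WT on each diet, with medians of -0.22 on high fat and -0.43 on normal diet. Over all genes measured, 17.3% were higher and 3.75% lower on high fat, and 6.8% higher and 3.04% lower on normal diet, so the 3 of 18 higher on high fat diet were no more than the share of all genes. The receptor gene Nr3c1 was within 2-fold, at 94.2 against 101 CPM for HFD DTR and HFD WT (-0.09) and 103 against 136 CPM for ND DTR and ND WT (-0.40), and so was H6pd, the partner of Hsd11b1, at -0.19 and 0.15. Hsd11b2 was low throughout, at 4.44 CPM in HFD DTR, 5.27 CPM in HFD WT, 7.37 CPM in ND DTR and 2.24 CPM in ND WT, and was past 2-fold for DTR over WT on normal diet (1.72, 1.06 to 2.44). Genes that glucocorticoids are known to raise differed in direction. The classical targets Fkbp5 and Tsc22d3 were within 2-fold on both diets. Fkbp5 stood at 27.7 CPM in HFD DTR and 23.6 CPM in HFD WT (0.23), and at 32.2 CPM in ND DTR and 49.1 CPM in ND WT (-0.61). Tsc22d3 stood at 104 CPM in HFD DTR and 78.4 CPM in HFD WT (0.41), and at 33 CPM in ND DTR and 57.4 CPM in ND WT (-0.80). Zbtb16 stood at 5.72 CPM in HFD DTR and 22.1 CPM in HFD WT (-1.95), and at 15.3 CPM in ND DTR and 62.2 CPM in ND WT (-2.02). Per1, also a clock gene, was higher, at 102 against 33.0 CPM (1.63) on high fat and 58.0 against 21.3 CPM (1.44) on normal diet, as was the acute-phase gene Lcn2, at 24.1 against 7.98 CPM (1.59) and 165 against 18.2 CPM (3.18).

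Glutathione transferases other than Gsta3 were lower in 5 of 17 on high fat and 4 of 17 on normal diet, with 0 and 1 higher and medians of -0.43 and -0.56, beside 3.75% and 3.04% of all genes lower and 17.3% and 6.8% higher. Gstm1, the most abundant by UMIs, stood at 254 CPM in HFD DTR and 1028 CPM in HFD WT (-2.02), and at 585 CPM in ND DTR and 1558 CPM in ND WT (-1.41). Flavin monooxygenases and aldehyde or carbonyl enzymes were lower in 7 and 5 of 16, with 0 and 1 higher and medians of -0.66 and -0.47. Fmo2, which oxidises nitrogen and sulfur compounds, stood at 15.1 against 125 CPM (-3.06) on high fat and 40.3 against 176 CPM (-2.13) on normal diet, and is itself a marker of the F3 sub-gate. Adh1, an alcohol and retinol dehydrogenase, stood at -2.21 on high fat and 0.24 on normal diet, a difference between diets that was not tested. Sulfotransferase and oestrogen genes were lower in 2 of 10 on each diet, with none higher, namely Sult1a1 (-1.37 and -1.19) and Sult5a1 (-1.58 and -1.10).

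The other lists hold few measured genes, and their counts are read beside the same shares of all genes (17.3% higher and 3.75% lower on high fat, 6.8% higher and 3.04% lower on normal diet). Among 7 and 5 measured genes of the AhR axis, 2 and 0 were higher and none lower on high fat and normal diet, counts too small to set apart from those shares. Ahr was one of the 2, at 5.47 CPM in HFD DTR, 1.77 CPM in HFD WT, 1.57 CPM in ND DTR and 0.778 CPM in ND WT. Of 12 and 13 other P450 genes, 3 and 2 were higher and 2 and 2 lower, among them the sterol hydroxylase Cyp27a1 (-2.40 and -1.53), the cholesterol synthesis gene Cyp51 (2.18 on high fat) and Cyp7b1 (2.49 on normal diet). Of 9 and 8 genes that make or cleave leukotrienes and glutathione, 4 and 1 were higher and 1 and 0 lower. Ltc4s, which makes leukotriene C4, was higher (2.52 and 2.48), and Ggt5, which turns it into the substrate of Dpep1, was lower on high fat diet, at 52.7 against 215 CPM (-2.03). Of 6 esterase and lipase genes, 2 were higher on high fat and none was past 2-fold on normal diet, and of 6 methyltransferases 1 was lower on each diet, while Nnmt, the relative of Inmt, was within 2-fold (0.31 and 0.26).

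**Figure D5:**
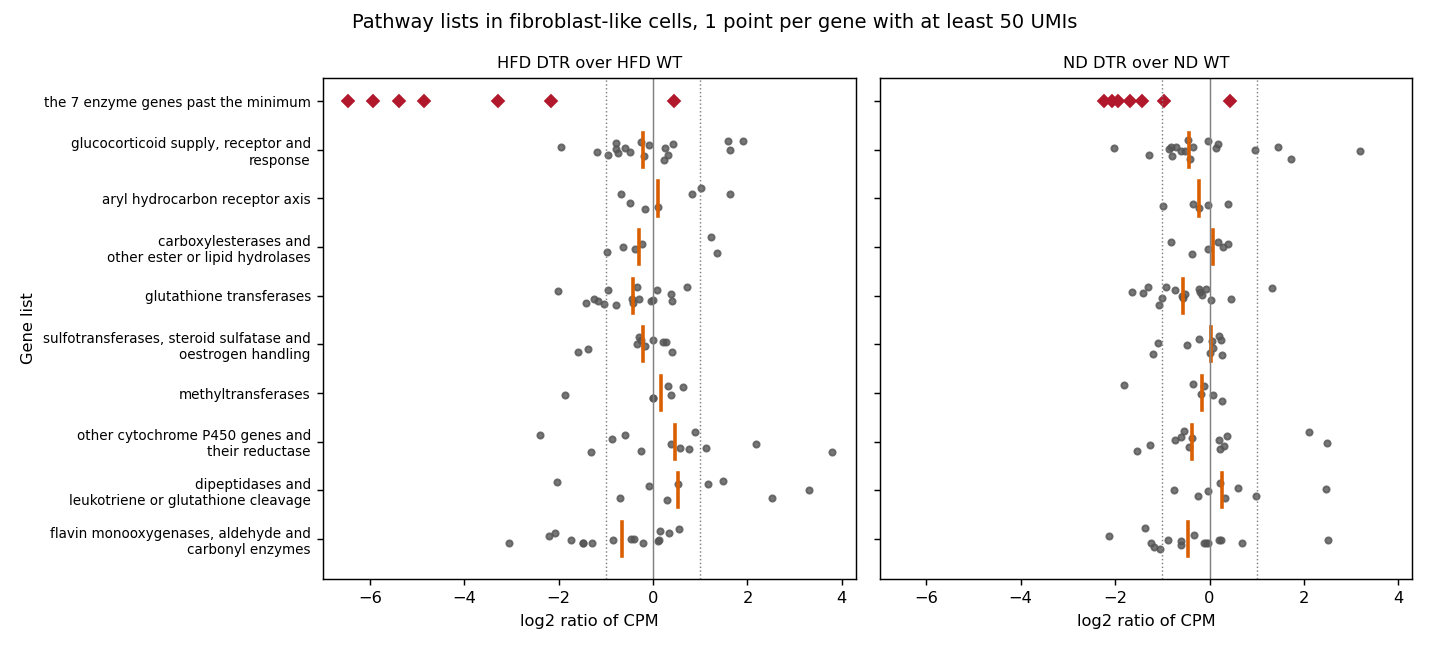
Log2 ratio of CPM in fibroblast-like cells for DTR over WT, on high fat diet and on normal diet, with 1 point for each measured gene of the 9 lists, the list median as an orange bar, dotted lines at 2-fold, and the 7 measured members as diamonds. Medians of the lists lie between -0.66 and 0.52, beside -4.86 and -1.69 for the members.

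Genes with a like pattern were ranked by Pearson's r of log2(CPM + 1) over 33 pairs of library and class among 12594 genes. The pairs share libraries and depth, so r is a description. Nearest to Inmt were Alkal2 (0.96), Cpxm2 (0.96) and Meiob (0.94), and nearest to Dpep1 were Fndc5 (0.96), Adamts12 (0.96) and Scn7a (0.95). Sult1e1 had Gdf10 (0.95), Dpyd (0.95) and Lrrn1 (0.94). Of these, Gdf10 is, like Fmo2, a marker of the F3 sub-gate, in which Sult1e1 was highest of the Pi16, Col15a1 and F3 sub-gates. That sub-gate is defined in part by Gdf10, so these are not separate observations. Cyp1b1 had Lum (0.94), Htra3 (0.93) and Tnfaip6 (0.93), of which Lum is a marker of the fibroblast gate. Ces1d and Gsta3 had Fmo2 (0.88 and 0.92) and Gm15551 (0.94 and 0.92) in common, with Ccdc3 (0.89) and Fam13a (0.92) as the third. Hsd11b1 had no gene as close, with Ntrk3 (0.75), Jak1 (0.74) and Rhoq (0.73). Nearest to Cyp1a1 was another P450 gene, Cyp2e1 (0.84), with Gm12002 (0.80) and the adipocyte gene Adig (0.78).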

How the data were processed

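Single-cell RNA was measured with droplet 3′ UMI libraries (kit version 3, per the labels' protocols) in 4 libraries of 8 runs each. The authors deposited raw UMI counts per gene and barcode, made with Cell Ranger 3.1.0 against mm10, per the submitters' processing notes. The number that ends a barcode was read as its library, in the sequence in which the deposited aggregation table lists them. No source used here says whether pooling the libraries involved subsampling of reads.

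From these counts, a cell needed 300 genes or more and a mitochondrial share of UMIs no higher than 10% (this removed 9.33% to 22.5% of barcodes), and doublets called per library by Scrublet in scanpy 1.11.5 at the labels' multiplet rate of 5.4% were removed (0.828% to 1.31%). A cell joined the class with at least 3 detected markers, at least 40% of its list and a lead of 20 points, and 17.9% to 29.7% of cells per library stayed ungated. UMIs were summed per library and class (at least 50 cells) and scaled to CPM. Poisson and conditional binomial (Clopper-Pearson) intervals are exact, at 95%, and cover counting error only. A gene needed 50 UMIs over both libraries, and 2-fold was the limit for a call. With 1 library per group no test across libraries was made. The interval code was tested on simulated counts.

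The members, the gene lists and the markers were chosen with earlier results of these data known. Genes outside the members were named from the listed genes past 2-fold, at most the 5 of a list with the most UMIs, plus those a result turns on, and the 3 nearest by correlation. A mean of cells each scaled alike, TMM (edgeR 4.0.16), other cell filters, doublets kept, a stricter gate, Leiden clusters (leidenalg 0.10.2) and a minimum of 10 UMIs were the alternatives. Other tools were Python 3.11.15, numpy 2.4.6, scipy 1.17.1, pandas 2.3.3 and matplotlib 3.10.9. Gene positions came from GENCODE and promoters from RefSeq.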

Additional observations from a re-analysis of the deposited data

How the results depend on the processing

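No paired analysis was possible because the replicate numbers in the labels are runs of 1 library per group. None of 289 recomputed log2 ratios of the members changed sign, 229 moved by less than their counting interval, and 60 moved by more. The largest move was 0.30 with TMM, 0.34 with every cell scaled alike, and at most 0.10 with other cell filters, doublets kept, a stricter gate or Leiden clusters. Without myofibroblast and cycling cells, chosen after seeing the data, it was 0.56, for Inmt in HFD DTR over HFD WT (-5.37, against -5.93). The counts of members lower were the same under all of these except TMM, where Dpep1 (-1.06) made 6 for ND DTR over ND WT.

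With a minimum of 10 UMIs, counts of all genes past 2-fold in fibroblast-like cells were 2751 for HFD DTR over ND DTR (1731 with 50 UMIs), 2030 for ND DTR over ND WT (1091) and 1526 for HFD WT over ND WT (761). In endothelial-like cells they were 924 for ND DTR over ND WT (188) and 979 for HFD WT over ND WT (255). The lower minimum admits more genes of few counts.

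Depth limits Ces1d in HFD DTR fibroblast-like cells (6 UMIs) and Cyp1a1 outside ND WT endothelial-like cells. The number of libraries limits every comparison.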

Other observations

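In endothelial-like cells the lists differed. None of 8 measured sulfotransferase and oestrogen genes was past 2-fold for ND DTR over ND WT or for HFD WT over ND WT. For ND DTR over ND WT none of 8 other P450 genes and none of 11 flavin monooxygenase, aldehyde and carbonyl genes was past 2-fold, and for HFD WT over ND WT 2 of 8 and 2 of 11 were lower. Of 13 measured glutathione transferases, 4 were 2-fold lower for ND DTR over ND WT (median -0.58) and 3 for HFD WT over ND WT (median -0.60), with none higher, where 1.26% and 2.49% of all genes were lower. Gstm1 stood at 104 CPM in ND DTR and 249.9 CPM in ND WT (-1.26). With high fat over normal diet in cells labelled WT, the P450 gene Cyp2e1 stood at 1.35 CPM (3 UMIs) against 59.1 CPM (-5.45, -7.74 to -3.88), and the AhR target Nqo1 at 6.77 against 20.1 CPM (-1.57). The metallothioneins Mt1 (-1.34) and Mt2 (-1.53), which glucocorticoids and metals raise, were lower as well. Summed adipocyte markers in these cells were 200 CPM in HFD WT, 1738 CPM in ND DTR and 2350 CPM in ND WT, and their part in these values was not tested.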
